A study of Arabidopsis thaliana with 8 samples.

Results

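The genes described here were those whose signal was highest in seedlings of SPCHΔ49 basl-2. They were chosen from the measured values themselves. A gene was taken when its mean signal in SPCHΔ49 basl-2 was at least 5, when that mean was at least 2.5 times both the SPCHΔ49 mean and the WT mean, and when the lowest SPCHΔ49 basl-2 library lay above every other library. Of 18855 listed genes 78 met these terms. From a list of 10 sugar starvation and cell wall genes excluded by name, 5 were among them, which left 73 members. Both differences that involve SPCHΔ49 basl-2 were used for this choice, so they are described below by values and ratios of means without a test. The difference between SPCHΔ49 and WT was not a term of the rule, and it was tested.

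The libraries came from whole Arabidopsis thaliana seedlings, 12 days old and without treatment, of 3 genotypes. SPCHΔ49 basl-2 (n = 3) carried the transgene 35S:SPCHΔ49 together with the basl-2 mutation. SPCHΔ49 (n = 3) carried 35S:SPCHΔ49 alone, and the wild type (WT, n = 2) carried neither. SPEECHLESS (SPCH) is a transcription factor that opens the path to stomata, and BASL is a polarity protein of the unequal divisions along it. The 35S promoter is active in most cells of the plant, so the transgene was not limited to that path. The basl-2 mutant without the transgene was not analysed here, and the labels name no independent lines of a genotype. The part of the mutation, of the transgene's level and of the line in a difference cannot be told apart.

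When plants run short of sugar, as in long darkness, they break down proteins and oxidise the amino acids in mitochondria. Leucine, isoleucine and valine are first transaminated, then decarboxylated by the branched-chain 2-oxoacid dehydrogenase complex, and the electrons of the later steps reach ubiquinone through the electron-transfer flavoprotein and its oxidoreductase, ETFQO. Genes of these routes are held down by sugar and are known from darkened leaves as dark-inducible genes. The kinase SnRK1 and the bZIP factors it acts on are known to raise many of them. These bZIP factors bind the ACTCAT element, first described in the promoter of the proline dehydrogenase gene, and the G box CACGTG.

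Signals are the deposited values per gene, which summed to between 852202 and 1075376 per library with medians between 12.3 and 13.6. The totals differed by genotype: 959355 to 1075376 in SPCHΔ49 basl-2, 852202 to 953620 in SPCHΔ49, and 1.008e+06 and 1.011e+06 in WT. Ratios below were not corrected for these totals. With rescaled totals 60 of the 73 members still met the rule. That rescaling evened the summed signal without SPCH, organelle genes and the 1% most abundant genes, and so not the totals given above. The signals are not read counts, so the depth is unknown and no counting error is given. SPCH had a signal of 407 ± 74.9 in SPCHΔ49 basl-2, 2491 ± 136 in SPCHΔ49 and 6.92 ± 1.80 in WT (SD, n = 3, 3 and 2), so the transgenic lines differed in the level of SPCH as well as in basl-2. BASL had 2.74 ± 0.581 in SPCHΔ49 basl-2, 51 ± 13.6 in SPCHΔ49 and 3.43 ± 0.127 in WT. Summed over 16 guard cell markers the signal was 2335 to 2875 in SPCHΔ49 basl-2, 1830 to 2039 in SPCHΔ49 and 1213 to 1319 in WT, with no marker at 0. Over 12 root markers it was 73 to 124 in SPCHΔ49 basl-2, 42.1 to 50.6 in SPCHΔ49 and 480 to 492 in WT, and 2 to 7 of these markers were listed at 0 in the transgenic libraries. Over 20 stomatal lineage markers it was 666 to 778 in SPCHΔ49 basl-2, 3331 to 3890 in SPCHΔ49 and 203 to 206 in WT. Such a sum leans on its highest genes, and SPCH alone had the signals given above. Gene by gene, the median ratio of SPCHΔ49 basl-2 over these markers was 0.344 over SPCHΔ49 and 1.27 over WT. None of the marker genes was a member, and the part that cell makeup had in the values below was not tested. In whole seedlings fewer cells of a type and less RNA per cell cannot be told apart. The labels do not say whether replicates were separate cultures, so p-values measure the spread between these samples, which may be technical.

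The 73 members had mean signals between 5.19 and 2949 in SPCHΔ49 basl-2, with 30 at 100 or more and 21 under 20. The median ratio of means was 3.3 over SPCHΔ49 (2.53 to 19.9) and 4.53 over WT (2.55 to 38.0), this last over the 71 members above 0 in both WT libraries. The mean in SPCHΔ49 basl-2 was at least 5 times the higher of the other genotype means in 10 members, among them AT1G27565, which was listed at 0 in both WT libraries. By annotation and textbook role, 52 members fell into 5 groups: 12 genes of amino acid breakdown and transport, 12 of sugar, cell wall and central carbon metabolism, 8 of the ubiquitin pathway, 7 peptides and transcription factors, and 13 genes of stress, calcium, redox and lipid functions. The other 21 were mixed or uncharacterized. Sugar starvation genes were excluded by name, yet several of the members that remained belong to the same routes. From a list of 8 dark-inducible (DIN) genes written after the members were known, DIN3 and DIN9 were members, and DIN1, DIN6 and DIN10 met the terms but were excluded by name. DIN11 had a lower mean in SPCHΔ49 basl-2 than in WT, with overlapping libraries: 2.12, 0.0914 and 6.66 in the SPCHΔ49 basl-2 libraries, against 0.546, 0.983 and 1.03 in SPCHΔ49 and 14.2 and 6.09 in WT, a ratio of 0.291 over WT.

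**Figure D1:**
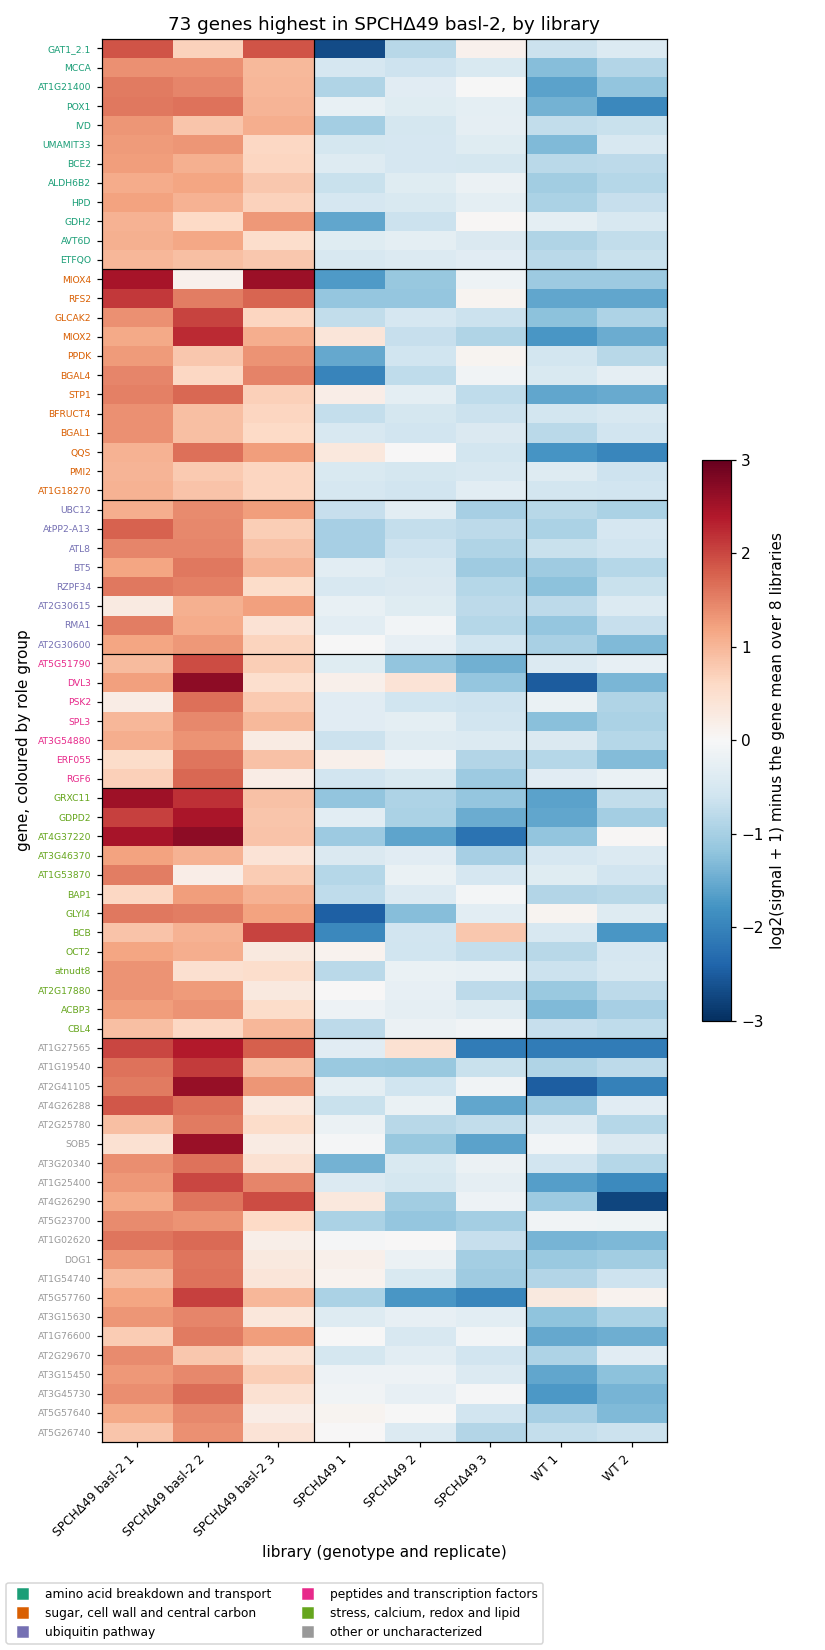
Signal of the 73 members in the 8 libraries, as log2(signal + 1) minus the gene's mean over all libraries (colour scale), with genes in rows by role group and libraries in columns. The 3 SPCHΔ49 basl-2 columns are the highest in every row because the rule required it, and replicate 3 is the palest of them for 53 of the 73 genes.

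Promoter sequence was read for 2 members that carry one or both of the elements above, to show how these stand before the transcription start. They are the 250 bases before the annotated start in TAIR10.1, written 5′ to 3′ on the gene's strand, with ACTCAT and CACGTG on either strand in capitals (ACTCAT reads ATGAGT on the other strand). AVT6D (AT2G40420), annotated as an amino acid transporter, has 5 copies of ACTCAT at chr2:16876894-16877143 on the plus strand. RFS2 (AT3G57520), of the raffinose synthase family, has 1 copy of each element at chr3:21293172-21293421 on the minus strand. Neither window overlaps an annotated exon. Genes were matched by identifier, since no source used here gives the build behind the deposited values.
AVT6D: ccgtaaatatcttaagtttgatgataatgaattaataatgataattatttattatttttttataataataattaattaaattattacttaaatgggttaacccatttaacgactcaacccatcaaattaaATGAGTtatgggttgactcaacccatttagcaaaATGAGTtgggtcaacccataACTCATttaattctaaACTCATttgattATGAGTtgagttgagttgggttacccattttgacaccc
RFS2: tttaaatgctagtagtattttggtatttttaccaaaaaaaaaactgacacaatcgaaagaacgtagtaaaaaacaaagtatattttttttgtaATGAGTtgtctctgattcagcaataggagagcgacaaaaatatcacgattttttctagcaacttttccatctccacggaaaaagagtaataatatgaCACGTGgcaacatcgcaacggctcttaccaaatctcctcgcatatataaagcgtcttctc

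These promoters do not stand for the set. In windows from 250 bases before to 50 bases after the start, on both strands, 12 of 73 members (16.4%) held ACTCAT, against 13.9% of 18753 promoters of listed genes. CACGTG stood in 10 members (13.7%), against 8.9% of all promoters, and every CACGTG is also a CANNTG, which 68.5% of members and 62.4% of all promoters held. ACGTGT, which resembles abscisic acid response elements, stood in 23.3% of members and 13.4% of all promoters. AAATATC, the core of the evening element of the circadian clock, stood in 23.3% of members and 14.6% of all promoters. TGGGCC, common before genes of ribosomes and cell division, stood in 6.8% of members and 19.1% of all promoters. Other motifs read were TGACG (34.2% of members, 23.7% of all promoters), TTATCC (21.9%, 15.8%) and TTGAC (58.9%, 50.8%). TATAAA (58.9%, 51.4%), GCCGCC (1.4%, 2.6%) and AAACCCT (4.1%, 9.3%) were also read. ACTCAT and TTATCC were added to the planned motifs. These shares are descriptions of letters and were not tested.

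Breakdown of branched-chain amino acids was represented by 6 members. AT1G21400 encodes the E1 alpha subunit of the branched-chain 2-oxoacid dehydrogenase, and its signal was 314, 290.1 and 211 in SPCHΔ49 basl-2, 56.1, 82.3 and 104 in SPCHΔ49 and 34.1 and 46.1 in WT. BCE2 (AT3G06850, DIN3), the acyltransferase of the same complex, had 138, 121 and 89.8 in SPCHΔ49 basl-2, 43.3, 40.00 and 39.1 in SPCHΔ49 and 32.2 and 32.4 in WT. IVD (AT3G45300), isovaleryl-CoA dehydrogenase of leucine breakdown, had 291, 207 and 249.98 in the SPCHΔ49 basl-2 libraries, against 56.7, 80.5 and 96.1 in SPCHΔ49 and 69.2 and 73.3 in WT. In each of these genes the SPCHΔ49 basl-2 libraries lay at more than 2 times the highest other library, and the SPCHΔ49 and WT libraries of BCE2 and of AT1G21400 did not overlap, while those of IVD did. MCCA (AT1G03090), the biotin-carrying subunit of methylcrotonyl-CoA carboxylase further down the leucine route, had 404, 401 and 305 in SPCHΔ49 basl-2, 108, 101 and 112 in SPCHΔ49 and 63.3 and 83.7 in WT. ALDH6B2 (AT2G14170), methylmalonate semialdehyde dehydrogenase of valine breakdown, had 152, 159.99 and 124 in SPCHΔ49 basl-2, 43.8, 54.6 and 61.5 in SPCHΔ49 and 33.5 and 38.5 in WT. ETFQO (AT2G43400), which passes electrons from IVD to ubiquinone, had 90.7, 86 and 80.4 in the SPCHΔ49 basl-2 libraries, against 32, 33.5 and 35.8 in SPCHΔ49 and 25.3 and 28 in WT. Its libraries were the closest of the 6 within SPCHΔ49 basl-2, and its ratio of 2.54 over SPCHΔ49 placed it just inside the rule.

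The neighbouring genes of the route, from a list of 16 written after the members were known, followed in part. BCAT2, the first transaminase, had 313, 306 and 211 in SPCHΔ49 basl-2, 23, 42.3 and 67.5 in SPCHΔ49 and 12.9 and 14.1 in WT, and was excluded by name. DIN4, an E1 beta subunit of the dehydrogenase, was 2.37-fold over SPCHΔ49 and 7.26-fold over WT, and so fell short of the rule by its ratio to SPCHΔ49. The other beta subunit gene, AT1G55510 (BCDH BETA1), stood at 2.38-fold over SPCHΔ49, and MCCB, the partner of MCCA, at 2.35-fold. In 12 of the 16 genes every SPCHΔ49 basl-2 library lay above every other library, as did 5.81% of all listed genes, a count that rests on the differences used by the rule. The second E1 alpha gene, AT5G09300, was lower in SPCHΔ49 basl-2, at 0.513 of the SPCHΔ49 mean. ETFA and ETFBETA, the subunits of the flavoprotein that feeds ETFQO, were at 1.06-fold and 1.58-fold over SPCHΔ49.

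**Figure D2:**
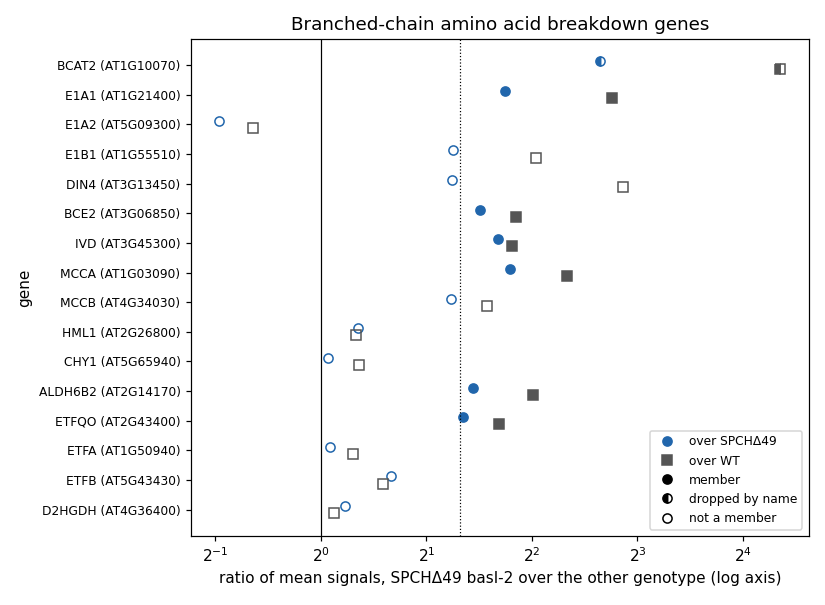
Ratio of mean signals of SPCHΔ49 basl-2 over SPCHΔ49 (circles) and over WT (squares) on a log axis for 16 genes of branched-chain amino acid breakdown, with filled marks for members, a half-filled mark for the gene excluded by name, and the rule's 2.5-fold as a dotted line. DIN4, E1B1 and MCCB stand just left of that line over SPCHΔ49, at 2.37, 2.38 and 2.35, and the ETF subunit genes stand at 1.06 and 1.58 over SPCHΔ49.

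Other amino acid genes among the members act on proline, glutamate and tyrosine. POX1 (AT3G30775), proline dehydrogenase, had 703, 729 and 479 in SPCHΔ49 basl-2, 202, 182 and 193 in SPCHΔ49 and 87 and 61.1 in WT. This was the member with the highest level in the group and with 3 separate levels, SPCHΔ49 basl-2 above SPCHΔ49 and SPCHΔ49 above WT in every library. GDH2 (AT5G07440), a subunit of the mitochondrial glutamate dehydrogenase that releases ammonium from glutamate, had 605, 441 and 715 in the SPCHΔ49 basl-2 libraries, against 97.7, 187 and 296 in SPCHΔ49 and 238 and 209.7 in WT. In that gene SPCHΔ49 replicate 1 was the lowest library of all, below both WT libraries, and the SPCHΔ49 libraries spread around the WT level. HPD (AT1G06570), which turns 4-hydroxyphenylpyruvate from tyrosine into homogentisate, had 577, 515 and 402 in SPCHΔ49 basl-2, 175, 182 and 204 in SPCHΔ49 and 128 and 154 in WT, with SPCHΔ49 above WT in every library. GAT1_2.1 (AT1G15040), annotated as a glutamine amidotransferase-like protein, had 51.7, 21.9 and 52.1 in SPCHΔ49 basl-2, 1.24, 7.0 and 14.6 in SPCHΔ49 and 8.09 and 9.81 in WT, a spread of more than 10 times within SPCHΔ49. The putative transporters AVT6D and UMAMIT33 (AT4G28040) had ratios of 2.55 and 3.01 over SPCHΔ49, and 3.55 and 3.95 over WT. From a list of 11 other amino acid breakdown genes, POX2, the second proline dehydrogenase gene, was 2.76-fold over SPCHΔ49 with overlapping libraries, and ALDH12A1, the next enzyme of proline breakdown, was 1.24-fold over SPCHΔ49 and 0.791-fold over WT. HGO, the step after HPD, was 2.04-fold over SPCHΔ49 and 4.30-fold over WT. In the same list GSTZ1 was 1.11-fold over SPCHΔ49 and 0.878-fold over WT, and FAH was 1.18-fold and 1.20-fold. Libraries of both genes overlapped. In 5 of the 11 genes every SPCHΔ49 basl-2 library lay above every other library, against 5.81% of all genes. That count rests on the differences used by the rule.

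Sugar and cell wall genes included STP1, the member with the second highest level, and genes of sucrose, galactoside and myo-inositol use. STP1 (AT1G11260), which imports monosaccharides with protons at the plasma membrane, had 1741, 1993 and 990.1 in the SPCHΔ49 basl-2 libraries, against 699, 496 and 358 in SPCHΔ49 and 204 and 211 in WT. All SPCHΔ49 libraries also lay above both WT libraries. BFRUCT4 (AT1G12240), a vacuolar invertase that splits sucrose, had 389, 278 and 234 in SPCHΔ49 basl-2, 90.7, 103 and 95.7 in SPCHΔ49 and 102 and 108 in WT. SPCHΔ49 and WT were nearly level in this gene, with every SPCHΔ49 library at or below 103 and both WT libraries between 102 and 108. Other genes of these families had other patterns: from a list of 8 sugar transporters and invertases, the vacuolar invertase BFRUCT3 was 1.70-fold over SPCHΔ49 and 0.186-fold over WT, the cell wall invertase CWINV1 was 1.12-fold over SPCHΔ49 and 0.466-fold over WT, and the sugar transporter SWEET1 was 0.236-fold over SPCHΔ49 and 6.66-fold over WT. RFS2, whose promoter is shown above, had 408, 270.4 and 314 in SPCHΔ49 basl-2, 41.3, 41.1 and 98.1 in SPCHΔ49 and 31 and 30.8 in WT, so SPCHΔ49 replicate 3 was more than 2 times the other libraries of its genotype. BGAL1 (AT3G13750), a beta-galactosidase, had 997, 724 and 579 in the SPCHΔ49 basl-2 libraries, against 275, 256 and 284 in SPCHΔ49 and 219 and 256 in WT. BGAL4 (AT5G56870), of the same family, had 220.5, 123 and 226 in SPCHΔ49 basl-2, 19.4, 46.9 and 74.7 in SPCHΔ49 and 57.9 and 65.8 in WT. The SPCHΔ49 libraries were close together in BGAL1 and far apart in BGAL4, where they lay on both sides of WT.

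Myo-inositol oxidation, which yields glucuronic acid for wall precursors, was represented by 3 members. MIOX2 (AT2G19800), a myo-inositol oxygenase, had 201, 429 and 192 in SPCHΔ49 basl-2, 116, 55.6 and 48.2 in SPCHΔ49 and 26 and 31.7 in WT. MIOX4 (AT4G26260), of the same family, had 18.8, 2.90 and 20.1 in the SPCHΔ49 basl-2 libraries, against 0.0929, 0.616 and 2.17 in SPCHΔ49 and 0.655 and 0.654 in WT. GLCAK2 (AT5G14470), named as a kinase of glucuronic acid, had 19, 30.2 and 11 in SPCHΔ49 basl-2, 3.63, 4.40 and 3.91 in SPCHΔ49 and 2.29 and 3.06 in WT. The MIOX genes ran against each other within SPCHΔ49 basl-2: replicate 2 was highest for MIOX2 and lowest for MIOX4. MIOX1 was not a member, at 1.73-fold over SPCHΔ49 with overlapping libraries. The ratio of MIOX4 was 14.5 over SPCHΔ49 and 21.3 over WT, with no SPCHΔ49 or WT library above 2.17.

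Of the remaining 4 genes in that group, PPDK (AT4G15530), which makes phosphoenolpyruvate from pyruvate, had 205, 148 and 214 in SPCHΔ49 basl-2, 28.1, 54.7 and 89.2 in SPCHΔ49 and 56.6 and 46.4 in WT. QQS (AT3G30720), an orphan gene of Arabidopsis whose product lowers starch, had 37.8, 58.2 and 43.4 in the SPCHΔ49 basl-2 libraries, against 22.1, 17.7 and 11.7 in SPCHΔ49 and 4.51 and 3.84 in WT. QQS libraries fell into 3 separate levels like those of POX1 and STP1, while PPDK overlapped between SPCHΔ49 and WT. PMI2 (AT1G67070, DIN9), a mannose-6-phosphate isomerase, had a mean of 17.8 in SPCHΔ49 basl-2, 6.60 in SPCHΔ49 and 6.50 in WT. AT1G18270, annotated as a ketose-bisphosphate aldolase, had means of 65.5 in SPCHΔ49 basl-2, 25.8 in SPCHΔ49 and 23.8 in WT.

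**Figure D3:**
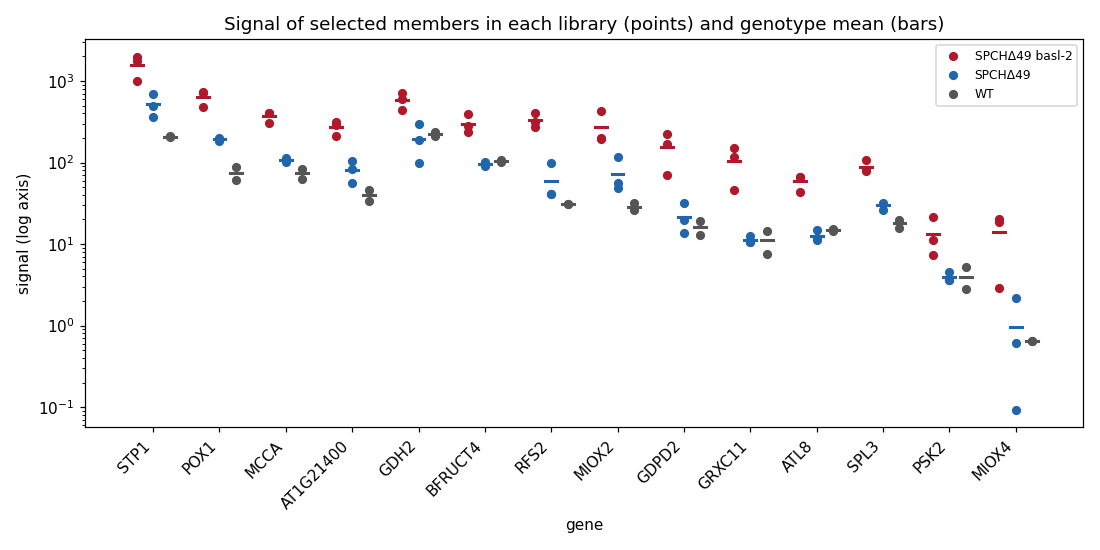
Signal on a log axis of 14 members in each library (points) with the genotype mean (bars), SPCHΔ49 basl-2 left of SPCHΔ49 and WT. STP1, POX1, MIOX2 and SPL3 show SPCHΔ49 between the other genotypes, BFRUCT4 and ATL8 show SPCHΔ49 near WT, and MIOX4 has 1 SPCHΔ49 basl-2 library at 2.90 against 18.8 and 20.1 in the others.

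The 8 ubiquitin pathway members encode enzymes or adaptors that mark proteins for degradation, or proteins with the domains of such adaptors. ATL8 (AT1G76410), a RING-type ubiquitin ligase of the ATL family, had 66.3, 65.8 and 43.5 in SPCHΔ49 basl-2, 11.2, 14.7 and 12 in SPCHΔ49 and 14.4 and 15.2 in WT. RZPF34 (AT5G22920), a RING ligase with a CHY zinc finger, had 459, 433 and 224 in SPCHΔ49 basl-2, 108, 113 and 84 in SPCHΔ49 and 63.8 and 95.6 in WT. In both genes the SPCHΔ49 and WT libraries overlapped. AtPP2-A13 (AT3G61060), an F-box protein with a phloem lectin domain, had 144, 114 and 69.5 in the SPCHΔ49 basl-2 libraries, against 20.3, 24.8 and 23.6 in SPCHΔ49 and 20.8 and 28.7 in WT. BT5 (AT4G37610), a BTB and TAZ domain protein, had 102, 133 and 90.9 in SPCHΔ49 basl-2, 35.1, 31.6 and 20.6 in SPCHΔ49 and 20.6 and 23.9 in WT. The related BT1 and BT2 were 2.04-fold and 2.05-fold over SPCHΔ49, with every SPCHΔ49 basl-2 library above every SPCHΔ49 library, but 1.12-fold and 1.66-fold over WT, where libraries overlapped. BT4 was 1.52-fold over SPCHΔ49 and 6.06-fold over WT. UBC12 (AT3G08700), a ubiquitin-conjugating enzyme, had 4.98, 6.50 and 5.62 in SPCHΔ49 basl-2, 0.726, 1.26 and 0.403 in SPCHΔ49 and 0.557 and 0.455 in WT, a ratio of 7.17 over SPCHΔ49 at a low level. RMA1 (AT4G03510), a membrane-anchored RING ligase of the endoplasmic reticulum, was 2.88-fold over SPCHΔ49 and 4.18-fold over WT. The BTB gene AT2G30600 and the F-box gene AT2G30615 overlap in the annotation, so their signals may share reads. AT2G30600 had 306, 333 and 216 in the SPCHΔ49 basl-2 libraries, against 133, 113 and 89 in SPCHΔ49 and 68.2 and 53 in WT, and AT2G30615 was the member with the lowest mean, 5.19.

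All 7 peptides and transcription factors were highest in replicate 2 of SPCHΔ49 basl-2. SPL3 (AT2G33810), a squamosa promoter binding factor of the change to flowering that is kept down by miR156, had 80.3, 109 and 78.2 in SPCHΔ49 basl-2, 31.1, 32.2 and 26.1 in SPCHΔ49 and 15.9 and 19.9 in WT. Its replicates were closer than those of the other 6 genes, and the 3 genotypes did not overlap. DVL3 (AT1G67265), of the DEVIL family of small peptides, had 30.7, 86.1 and 18.2 in SPCHΔ49 basl-2, 14.1, 17.1 and 5.06 in SPCHΔ49 and 1.41 and 4.23 in WT. PSK2 (AT2G22860), a precursor of the peptide hormone phytosulfokine, had 7.24, 21.4 and 11.1 in the SPCHΔ49 basl-2 libraries, against 4.59, 3.65 and 3.61 in SPCHΔ49 and 5.17 and 2.79 in WT. RGF6 (AT4G16515), a root meristem growth factor precursor, had 27.2, 55.5 and 19.1 in SPCHΔ49 basl-2, 10.6, 11.5 and 7.08 in SPCHΔ49 and 12.6 and 14 in WT. In DVL3 the lowest SPCHΔ49 basl-2 library stood at 1.07 times the highest SPCHΔ49 library, and in all 3 peptide genes replicate 2 was at least 1.92 times each of the other SPCHΔ49 basl-2 libraries. ERF055 (AT1G36060), of the AP2/ERF factors, had 18.3, 39.4 and 23.2 in SPCHΔ49 basl-2, 13.6, 10.8 and 6.25 in SPCHΔ49 and 6.31 and 4.40 in WT. The bHLH gene AT5G51790 had 9.23, 19.9 and 7.90 in the SPCHΔ49 basl-2 libraries, against 3.18, 1.35 and 0.974 in SPCHΔ49 and 2.99 and 3.50 in WT, and the zinc finger gene AT3G54880 had ratios of 2.77 over SPCHΔ49 and 3.11 over WT. Of 5 phytosulfokine precursor genes PSK2 was the only member, and the gene the files name PSK3 (AT3G49780) was 2.56-fold over SPCHΔ49 but 0.878-fold over WT.

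Stress, calcium, redox and lipid genes included 3 that were at least 6.65-fold over both other genotypes. GRXC11 (AT3G62950), a CC-type glutaredoxin of plants, had 149, 118 and 46.5 in SPCHΔ49 basl-2, 10.5, 12.6 and 10.6 in SPCHΔ49 and 7.55 and 14.6 in WT. GDPD2 (AT5G41080), a glycerophosphodiester phosphodiesterase, had 169, 222 and 70.9 in SPCHΔ49 basl-2, 31.7, 19.9 and 13.5 in SPCHΔ49 and 12.9 and 19 in WT. AT4G37220, of the cold acclimation protein family WCOR413, had 117, 135 and 37.1 in the SPCHΔ49 basl-2 libraries, against 9.01, 6.13 and 3.59 in SPCHΔ49 and 8.37 and 20.7 in WT. Replicate 3 was the lowest SPCHΔ49 basl-2 library by more than 2 times in all 3, and still above every other library. ACBP3 (AT4G24230), an acyl-CoA-binding protein whose excess speeds leaf senescence in Arabidopsis, had 442, 469 and 269.5 in SPCHΔ49 basl-2, 166, 152 and 141 in SPCHΔ49 and 73 and 92.1 in WT. GLYI4 (AT1G15380), a glyoxalase I family protein, had 104, 101 and 80.8 in SPCHΔ49 basl-2, 5.42, 13.6 and 27.3 in SPCHΔ49 and 36.6 and 25.9 in WT, with SPCHΔ49 replicates 1 and 2 below both WT libraries. BCB (AT5G20230), a blue copper-binding protein, had 173, 197 and 395 in the SPCHΔ49 basl-2 libraries, against 24.3, 63.7 and 168 in SPCHΔ49 and 68.2 and 27.9 in WT. Its lowest SPCHΔ49 basl-2 library was 1.03 times the highest SPCHΔ49 library, the narrowest gap of any member.

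The other 7 genes of that group had ratios between 2.53 and 4.21 over SPCHΔ49. CBL4 (AT5G24270, SOS3), a calcium sensor of salt tolerance, had 11.6, 9.45 and 12.5 in SPCHΔ49 basl-2, 2.96, 5.04 and 5.25 in SPCHΔ49 and 3.19 and 3.02 in WT. BAP1 (AT3G61190), which with its partner BON1 holds back cell death, had 7.29, 11.8 and 10.1 in SPCHΔ49 basl-2, 2.16, 3.07 and 4.20 in SPCHΔ49 and 1.90 and 2.04 in WT. AT3G46370, a leucine-rich repeat kinase, had means of 5.42 in SPCHΔ49 basl-2, 1.29 in SPCHΔ49 and 1.46 in WT. The remaining 4 were AT1G53870, OCT2, atnudt8 and AT2G17880, annotated as a LURP-one-like protein, an organic cation transporter, a nudix hydrolase and a DnaJ protein. Their means in SPCHΔ49 basl-2 were 8.93, 9.16, 11.7 and 93.1, in that order.

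Among the 21 mixed or uncharacterized genes, AT3G15450 had the highest level of all members. It is annotated as an aluminum induced protein with YGL and LRDR motifs, and its signal was 3200.1, 3495 and 2153 in the SPCHΔ49 basl-2 libraries, against 1162, 1157 and 974 in SPCHΔ49 and 436 and 552 in WT. The genotypes formed 3 separate levels. AT1G25400, without annotated function, had 86.5, 139.8 and 96.7 in SPCHΔ49 basl-2, 25.5, 23.3 and 28.4 in SPCHΔ49 and 10.2 and 8.41 in WT. AT1G76600 had 36.9, 65.5 and 52.8 in SPCHΔ49 basl-2, 21.2, 15.1 and 20.4 in SPCHΔ49 and 6.75 and 7.20 in WT. In both of these genes the genotypes also formed separate levels. AT1G54740, a FANTASTIC FOUR-like protein, had 287, 454 and 188 in the SPCHΔ49 basl-2 libraries, against 157, 106 and 69.5 in SPCHΔ49 and 79.7 and 95.2 in WT, with SPCHΔ49 libraries on both sides of WT. DOG1 (AT5G45830), the seed dormancy regulator, had 14.8, 18.6 and 6.83 in SPCHΔ49 basl-2, 6.13, 4.67 and 2.16 in SPCHΔ49 and 1.96 and 2.09 in WT, and its SPCHΔ49 and WT libraries came close without overlapping. AT1G19540, an NmrA-like protein, was 6.81-fold over SPCHΔ49 and 6.25-fold over WT. SOB5 (AT5G08150), found as a suppressor of a phytochrome B mutant, had 5.77, 28.8 and 4.84 in SPCHΔ49 basl-2, 3.80, 1.24 and 0.610 in SPCHΔ49 and 3.62 and 2.66 in WT, so that a single library carried most of its mean. AT3G45730, without annotated function, had 130.3, 158 and 67.7 in the SPCHΔ49 basl-2 libraries, against 45.2, 40.9 and 48.1 in SPCHΔ49 and 14.1 and 17.8 in WT. AT3G15630 had 163, 179 and 81.9 in SPCHΔ49 basl-2, 49, 54.2 and 51.5 in SPCHΔ49 and 27.3 and 32.7 in WT. AT2G29670, a tetratricopeptide repeat protein, had 178, 116 and 90.00 in SPCHΔ49 basl-2, 45.2, 52.6 and 43.9 in SPCHΔ49 and 34 and 51.5 in WT. The SPCHΔ49 libraries lay above both WT libraries in AT3G45730 and AT3G15630 and overlapped WT in AT2G29670. Lower levels were seen for AT2G25780, AT3G20340, the Ras-related gene AT1G02620 and AT5G57640, whose means in SPCHΔ49 basl-2 were 7.26, 17.5, 20.3 and 9.50, and AT5G26740, an organic solute transporter by annotation, had a mean of 69.

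For 4 members of this group the annotation or the zeros limit what can be read. AT2G41105 lies over TCH3 (AT2G41100), and no source used here says whether counting used strand, so its signal of 24.6, 53 and 21 in the SPCHΔ49 basl-2 libraries, against 6.20, 4.77 and 7.12 in SPCHΔ49 and 0.585 and 1.15 in WT may hold reads of that neighbour. AT4G26288, with a ratio of 4.65 over SPCHΔ49 and 4.53 over WT, and AT4G26290, with 3.95 over SPCHΔ49, overlap each other. AT4G26290 was listed at 0 in WT replicate 2, and AT1G27565 was at 0 in SPCHΔ49 replicate 3 and in both WT libraries. AT1G27565 had 16.4, 21.4 and 13.9 in SPCHΔ49 basl-2, 2.41, 4.93 and 0 in SPCHΔ49 and 0 and 0 in WT, and no ratio over WT is given for either gene. In all, 29 of 73 members overlap another annotated gene, MCCA, STP1, HPD, SPL3 and ETFQO among them.

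SPCHΔ49 was then compared with WT, to ask whether members also differed between the genotypes without the basl-2 mutation. Using limma on log2(signal + 1) over all 18855 genes with Benjamini-Hochberg adjustment at 0.05, 14 members rose and 2 fell in SPCHΔ49, and 57 did not pass. Over all genes 9.9% rose and 17.3% fell, together 27.2%. The rule bounds the SPCHΔ49 and WT means from above and so bears on these counts, though it sets no order between them. The median difference on that scale was 0.33 over the members and -0.01 over all genes, and the SPCHΔ49 mean was above the WT mean in 55 of 73, against 49.7% of all genes. Every SPCHΔ49 library lay above every WT library in 29 of the 73 members, against 28.2% of all genes. For the 14 that rose, SPCHΔ49 basl-2 was the highest genotype but not the only one above WT.

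Each group held at least 1 of the 14 genes that rose, where 9.9% of all genes rose, and no count by group was tested. Amino acid genes gave 4 of 12 (log2(signal + 1) scale, ± SE of the fit): POX1 rose by 1.38 ± 0.22, AT1G21400 by 0.96 ± 0.29, MCCA by 0.55 ± 0.17 and ETFQO by 0.33 ± 0.10. From the sugar genes QQS rose by 1.77 ± 0.27 and STP1 by 1.26 ± 0.36, 2 of 12. The ubiquitin group gave AT2G30600 (0.87), 1 of 8, and the peptides and factors gave SPL3 (0.71), 1 of 7. From the stress group ACBP3 (0.89) rose, 1 of 13. The mixed genes gave AT2G41105 (1.92), AT3G45730 (1.44), AT1G25400 (1.38), AT1G76600 (1.31) and AT3G15450 (1.16), 5 of 21. Adjusted p-values of the 16 calls in limma ran from 0.0033 to 0.0475. The genes that fell were AT5G57760, by 1.76 ± 0.39, and AT5G23700, by 0.93 ± 0.25, both uncharacterized or annotated by structure alone. AT5G57760 had 9.02, 17.2 and 7.77 in SPCHΔ49 basl-2, 1.27, 0.310 and 0.125 in SPCHΔ49 and 4.42 and 3.73 in WT, which gives it the largest ratio over SPCHΔ49 of any member, 19.9, and one of the smallest over WT, 2.78.

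The calls of this comparison depended on the libraries, of which WT had 2, and for some genes on the settings. Of 17 alternatives MCCA and ETFQO each lost the call in 10 and AT1G21400 in 8, against 1 for POX1. The alternative without a filter equalled the main fit, since all 18855 genes passed the filter, and so could change no call. For MCCA these included a pseudocount of 5 and a minimum mean of 1, for ETFQO and AT1G21400 the replicate block and a fit of WT and SPCHΔ49 alone, and for MCCA and ETFQO a fit without an intensity trend. Without WT replicate 2 none of the 16 passed, without WT replicate 1 AT1G25400, POX1 and QQS passed, and without SPCHΔ49 replicate 2 there were 7 calls, while all 16 kept their direction. Without SPCHΔ49 basl-2 replicate 1, which enters only the estimate of the spread, 9 members rose, and without SPCHΔ49 replicate 1 a single member fell. Without WT replicate 2 the lone WT library was taken to vary like the other genotypes, and 19 of the 73 members had an unadjusted p under 0.05 in limma, against 26% of all genes tested. With all libraries 25 members did, against 40.3% of all genes. Without WT replicate 2 the difference was 1.13 for POX1 and 1.28 for STP1, beside 1.38 and 1.26 with all libraries.

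**Figure D4:**
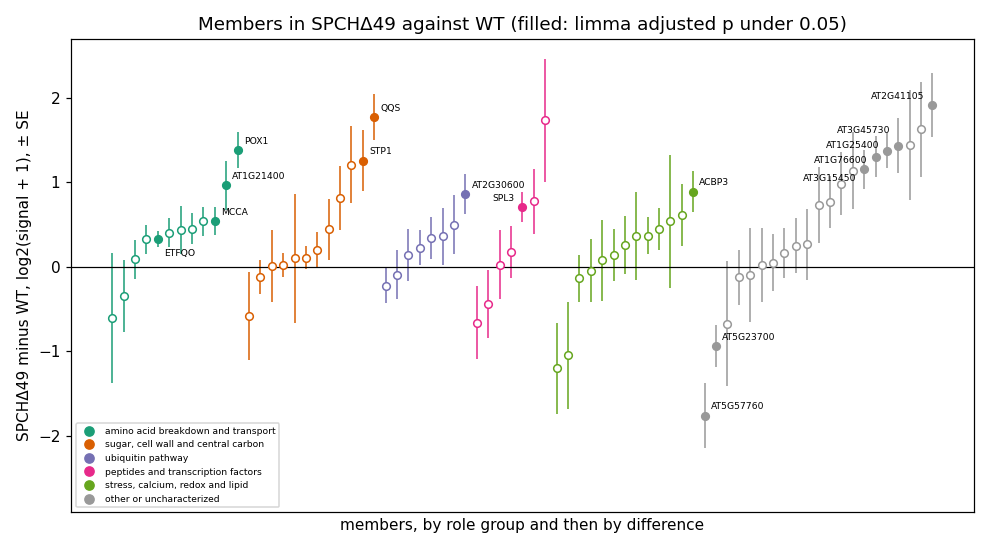
Difference of SPCHΔ49 minus WT on the log2(signal + 1) scale for the 73 members (points) with the standard error of the fit (bars), ordered by role group and then by size, filled where the limma adjusted p was under 0.05. The filled points are 14 above 0 and 2 below, and most open points of the amino acid group also lie above 0.

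The members did not vary in step among the SPCHΔ49 basl-2 libraries. Replicate 2 was the highest for 39 genes (53.4%), replicate 1 for 25 and replicate 3 for 9, while replicate 3 was the lowest for 53 (72.6%). Over the 13739 listed genes with a mean of at least 5 in SPCHΔ49 basl-2, replicate 2 was the highest in 39.9% and replicate 3 the lowest in 41.7%. In 35 members the highest SPCHΔ49 basl-2 library was at least 2 times the lowest. The median of that ratio was 1.51 for the amino acid genes, 1.69 for the sugar genes, 1.80 for the ubiquitin genes, 2.01 for the stress genes and 2.52 for the peptides and factors. The amino acid genes were thus the most even of the groups.

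A small set went the other way. BGAL4, CBL4, GAT1_2.1, GDH2, IVD, MIOX4 and PPDK were lowest in SPCHΔ49 basl-2 replicate 2, and within SPCHΔ49 they were lowest in replicate 1 and highest in replicate 3. The largest set, 18 members with STP1, MIOX2 and AT3G15450 among them, was lowest in replicate 3 of both transgenic genotypes. Within SPCHΔ49 these 18 were highest in replicate 1. A further 11 members were also lowest in replicate 3 of both genotypes, and highest in SPCHΔ49 replicate 2. Across the 18855 genes, which are not independent replicates, the deviations from the genotype means of SPCHΔ49 basl-2 replicate 2 and SPCHΔ49 replicate 1 correlated at 0.772, and those of SPCHΔ49 basl-2 replicate 3 and SPCHΔ49 replicate 3 at 0.756. These libraries thus shared a deviation that genotype does not give and that the labels do not name, and its part in the members' levels was not tested. DIN2 (BGLU30), excluded by name, followed the order of BGAL4 and GDH2, and its libraries overlapped. It had 31.0, 3.02 and 66.7 in SPCHΔ49 basl-2, 0.225, 9.52 and 29.6 in SPCHΔ49, and 0.641 and 1.26 in WT.

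**Figure D5:**
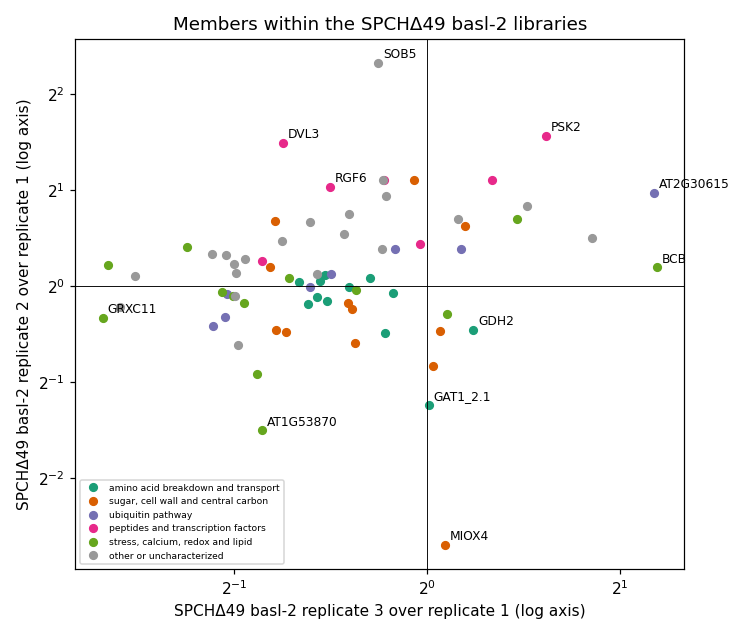
Signal of each member in SPCHΔ49 basl-2 replicate 2 over replicate 1 (vertical, log axis) against replicate 3 over replicate 1 (horizontal, log axis), coloured by role group. Most points lie left of 1 on the horizontal axis, where replicate 3 is the lower library, and the amino acid genes (GAT1_2.1, GDH2 and IVD apart) lie close together near 1 on the vertical axis, while MIOX4 lies far below.

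To see how far the choice rested on single libraries, the rule was applied with 1 SPCHΔ49 basl-2 library held out, and the held-out library was then read. Without replicate 1 the rule took 72 genes, and replicate 1 lay above every SPCHΔ49 and WT library in 60 of them, against 17.3% of all genes. Without replicate 2 it took 65 genes, of which 56 had replicate 2 above every other library (22.9% of all genes). Without replicate 3 it took 112 genes, of which 94 had replicate 3 above every other library (16.2% of all genes). The held-out library was also at least 2.5-fold over both other means in 44 of 72, 45 of 65 and 30 of 112 genes, so replicate 3 met the level of the rule least often. The same SPCHΔ49 and WT libraries served for the choice and the reading, and the rule held them low in the chosen genes. High counts were thus favoured in advance, and the shares of all genes are no baseline for them. These are descriptions and not a test of replication.

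Genes near the limits of the rule show how it cuts. Just inside the ratio were CBL4, AT5G26740 and ETFQO at 2.53 to 2.54 times the higher of the other means, and just outside were ACR9 at 2.49, AT3G48390 at 2.48 and PLIP2 at 2.47. Just inside the level were AT2G30615 at 5.19, AT3G46370 at 5.42 and UBC12 at 5.70, and just outside were AT1G22490 at 4.93, ORF113 at 4.8 and PI at 3.70. By the gap between libraries BCB, DVL3 and DOG1 were just inside at 1.03, 1.07 and 1.11, and AT3G43850, P1R3 and AT1G50040 just outside at 0.887, 0.869 and 0.756. A total of 51 further genes failed by the ratio alone while at least 2-fold, 11 by the level alone and 12 by the gap alone.

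Members made up 0.387% of all listed genes, so a short list without a member says little about its pathway. Of 31 lists of marker, hormone, stress and nutrient genes with 327 listed members, a single gene, GDH2 of the nitrogen list, was among the 73. No listed gene for the jasmonate, salicylic acid, abscisic acid, heat shock, phosphate, sulfur or senescence response was a member. The guard cell list, with 16 genes and a median ratio of 1.33 over SPCHΔ49 and 2.72 over WT, gave none either, though in 6 of the 16 every SPCHΔ49 basl-2 library lay above every other library, against 5.81% of all genes.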

How the data were processed

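RNA of whole seedlings was measured in 8 libraries. Reads were trimmed with Trimmomatic 0.38 and quantified with kallisto 0.44.0, with sleuth also named, per the submitters' processing notes. The sources used here do not give the build, the annotation or the use of strand. The authors deposited a signal per gene and library, headed TPM per the file headers. Its totals differ between libraries (852202 to 1075376), so it was treated as a rescaled signal, where the planned design had assumed TPM or a like unit, and no count model applied. The depth of each library is unknown.

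Genotype means, ratios and the rule were computed from these values. The filter asked for a signal of 1 or more in 2 or more libraries. All 18855 listed genes passed it, the 73 members among them. SPCHΔ49 was tested against WT on log2(signal + 1) with limma 3.58.1 (R 4.3.3). The fit held all 8 libraries and 1 mean per genotype, variances were moderated along the intensity trend, and p-values were adjusted after Benjamini and Hochberg over 18855 genes, with 0.05 as the threshold. The pseudocount of 1 understates the change of low genes. The fit was tested on data simulated with independent noise in each library. These data held no deviation shared between libraries, so that test cannot show how calls behave under one. Alternatives were another pseudocount, filter, scaling, variance model or set of libraries, a replicate block, and leaving out each library.

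The members and gene lists were chosen with earlier results of these data known, and the role groups and the lists of breakdown routes and gene families were written after the members were seen. Names were taken from the deposited files for 42 members and otherwise from the TAIR10.1 annotation, which matched all 73. The rule for named genes took the members with the largest ratios, the highest levels, the largest SPCHΔ49 differences, list members, genes at the limits and annotated factors, kinases and peptides, 55 in all. The other 18 were named after their values were seen. Members of gene families may share reads. Proteins were not used here.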

Additional observations from a re-analysis of the deposited data

How the results depend on the processing

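The number of chosen genes followed the fold required: 124 at 2-fold and 41 at 3-fold, against 73 at 2.5-fold. Leaving out 1 library gave 65 to 112, the highest without SPCHΔ49 basl-2 replicate 3, with 53 to 72 of the 73 among them. Other means, minimum levels, scalings or overlap gave 63 to 85, of which 59 of the 73 remained under quantile normalization and 60 with rescaled totals. For SPCHΔ49 against WT the 16 calls among members became 0 to 23 when 1 library was left out (0 to 21 up, 0 to 2 down), and 5120 calls over all genes became 1121 to 5636 (384 to 2101 up, 710 to 3535 down). Calls down among members were 0 with a pseudocount of 5 and 1 with quantile normalization. With rescaled totals 3342 genes rose over all genes in place of 1867, the share of calls that rose was 56.7% in place of 36.5% (51.1% with quantile normalization), and the median of all genes moved from -0.01 to 0.12, that of members from 0.33 to 0.47. No call among members changed direction. The cause of these changes was not tested.

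Replicate numbers did not pair the libraries in every case. Same-numbered SPCHΔ49 basl-2 and SPCHΔ49 libraries correlated at -0.169 for replicate 1, -0.0908 for replicate 2 and 0.756 for replicate 3. With the number as a replicate block 24 members were called, 22 of them up, and 6446 genes over all. Unknown depth limits what can be said of members with low signals.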
